A study of Mus musculus with 6 samples.

Results

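The 43 genes described here encode subunits of respiratory chain complexes I, II and III that are made from nuclear DNA. They were listed by gene name, with no value used in the rule but with earlier results of these data known, as 33 genes of complex I, 4 of complex II and 6 of complex III out of 18857 genes with reads in the series, and all 43 had reads in every library. The data are polyA RNA of mouse embryonic stem cells (ESCs), 1 library per group. The first 4 groups came from the line labelled iErk1; Erk KO, an Erk knockout in which doxycycline (Dox) drives Erk1: kept on Dox, taken off it for 48 hours, taken off it for 96 hours with PD0325901 during the last 48 of these, and taken off it for 96 hours with no inhibitor. The other 2 were wild-type KH2 cells treated with PD0325901 for 48 hours and untreated KH2 cells. All 6 share the KH2 line and the C57BL/6 x 129 background. PD0325901 inhibits Mek, the kinase that activates Erk. The labels do not give its dose or say whether the engineered line is a single clone, and the 4 engineered libraries have no wild-type partner of their own clone.

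Complex I takes electrons from NADH and passes them to ubiquinone while it pumps protons. Its N module binds NADH, its Q module hands electrons to ubiquinone, and its membrane arm holds the pumps. Complex II is succinate dehydrogenase, which joins the TCA cycle to the ubiquinone pool, and complex III carries electrons from ubiquinol to cytochrome c. Naive ESCs are known to use respiration as well as glycolysis, and a shift toward glycolysis accompanies their passage to the primed state.

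The promoters of 5 members are shown because the results below return to these genes or because they carry the sequences searched. Sdha was among the steadiest by library totals, and Sdhd of the same complex holds both sequences. Ndufs6 was high in the engineered line and Ndufb6 was low in it. Ndufv3 was the only member that passed after 96 hours without Dox. Each promoter shown is the 250 bases before the start, read 5′ to 3′ along the gene from RefSeq GRCm38.p6. Capitals mark matches on either strand to the core sequence bound by the nuclear respiratory factor NRF1, which begins and ends with GCGC, and to CCGGAAG, bound by Ets factors such as GABP.
Sdha, chr13:74350241-74350490, minus strand: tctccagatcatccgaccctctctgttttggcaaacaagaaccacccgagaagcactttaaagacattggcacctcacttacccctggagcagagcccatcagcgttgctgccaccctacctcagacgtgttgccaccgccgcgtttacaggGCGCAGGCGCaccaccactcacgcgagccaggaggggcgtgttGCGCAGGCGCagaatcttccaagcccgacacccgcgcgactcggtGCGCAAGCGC
Sdhd, chr9:50603850-50604099, minus strand: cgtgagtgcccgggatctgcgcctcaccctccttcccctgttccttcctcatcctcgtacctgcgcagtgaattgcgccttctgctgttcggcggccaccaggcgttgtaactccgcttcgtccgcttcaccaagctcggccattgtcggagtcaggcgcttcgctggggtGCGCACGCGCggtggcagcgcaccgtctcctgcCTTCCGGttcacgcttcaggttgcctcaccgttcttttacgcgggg
Ndufs6, chr13:73328483-73328732, minus strand: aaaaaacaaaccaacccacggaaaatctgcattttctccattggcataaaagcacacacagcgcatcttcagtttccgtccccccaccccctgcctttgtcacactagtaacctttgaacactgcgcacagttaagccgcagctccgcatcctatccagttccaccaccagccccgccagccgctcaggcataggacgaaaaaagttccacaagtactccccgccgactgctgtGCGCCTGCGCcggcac
Ndufb6, chr4:40279422-40279671, minus strand: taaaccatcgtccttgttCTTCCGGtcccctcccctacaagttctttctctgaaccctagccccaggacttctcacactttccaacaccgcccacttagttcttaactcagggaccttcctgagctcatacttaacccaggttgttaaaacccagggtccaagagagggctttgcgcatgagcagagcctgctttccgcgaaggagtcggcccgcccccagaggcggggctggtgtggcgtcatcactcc
Ndufv3, chr17:31519865-31520114, plus strand: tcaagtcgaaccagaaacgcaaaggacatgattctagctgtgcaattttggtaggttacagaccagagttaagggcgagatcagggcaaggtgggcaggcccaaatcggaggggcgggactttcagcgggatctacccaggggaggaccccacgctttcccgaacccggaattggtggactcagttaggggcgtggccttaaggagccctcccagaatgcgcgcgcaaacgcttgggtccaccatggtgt

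Of the 43 genes, 35 had promoters in the table, with 37 starts. The NRF1 sequence was found in 8 of these 37 promoters (21.6%), in 7.17% of the promoters of genes with reads and in 3.74% of all 32851 promoters. The Sdha promoter holds it at 3 places, beginning 98, 55 and 10 bases before the start, and Sdhd and Ndufs6 hold it once. The Ets sequence was found in 4 of 37 (10.8%), against 12.03% and 6.91%. Sdhd carries it 46 bases before the start and Ndufb6 carries it 232 bases before the start. The Ndufv3 promoter holds neither. The sequence of YY1 (AAGATGGC) was in 0 of 37 of these windows, against 1.81% of the promoters of genes with at least 20 reads. That of the estrogen-related receptors (TCAAGGTCA) was in 0 of 37, against 0.259%. In windows that also take in the 50 bases after the start, the YY1 sequence was in 7 of 37 (18.9%), against 3.91%, the receptor sequence in 1 of 37, against 0.272%, the NRF1 sequence in 10 of 37 (27.0%), against 8.83%, and the Ets sequence in 6 of 37 (16.2%), against 15.5%. A match describes letters and is no sign of binding.

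The libraries held 9.05 to 9.95 times 1e6 reads assigned to genes, and the 43 genes took 0.292% to 0.354% of them. The levels are deposited RPKM, reads scaled to gene length and library total. With 1 library per group, ratios between libraries carry 95% exact counting intervals only, and nothing shows the spread between cultures. A member passed a ratio when RPKM plus 0.5 differed by at least 1.5-fold, the higher level was at least 1 RPKM, at least 20 reads lay over both libraries and the counting interval excluded 1. As a check of the labels, Mapk3 (Erk1) was at 14.8 RPKM with Dox, 6.86 at 48 hours without it, 9.18 at 96 hours with PD0325901 and 6.75 at 96 hours, and at 52.8 and 56.4 RPKM in treated and untreated KH2 cells. Erk1 RNA was thus highest with Dox within the engineered line and stayed below both KH2 libraries there. All 12 ESC markers had reads in every library. Of 26 fibroblast markers, at least 25 had reads in every library, and their summed level ranged from 197 to 3483 RPKM.

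By their median the 43 genes were well expressed in every library, although Ndufs5 had only 2.67 to 4.33 RPKM in the engineered line. Their median level was 51.6 RPKM with Dox, 51.8 at 48 hours without it, 58.7 at 96 hours with PD0325901, 57.8 at 96 hours, 73.0 in treated KH2 and 76.3 in untreated KH2. The lowest of these medians lay above 90.4% of the genes with reads in its library. Uqcrb, a small subunit of complex III, had the highest median over the 6 libraries at 599 RPKM, followed by Ndufs6 of the N module (166 RPKM), Ndufb8 of the membrane arm (137 RPKM), the complex III core subunit Uqcrc1 (123 RPKM) and Ndufa7 of the N module (118 RPKM). The lowest were Ndufs5 (4.24 RPKM), Ndufb2 (13.2 RPKM) and Ndufa11 (15.2 RPKM), all of the membrane arm or its surroundings. By library totals, Ndufa10 (1.198-fold), the Q module subunit Ndufs8 (1.22-fold) and Sdha, the flavoprotein of complex II (1.26-fold), varied least between libraries. Factors of TMM (trimmed mean) scaling ran from 0.878 at 48 hours without Dox to 1.19 in treated KH2. With that scaling Ndufa10 and Ndufs8 were higher in every engineered library than in either KH2 library, and Sdha overlapped. Counting was of unique reads, so a gene with near-identical copies loses reads. Of the 50-base windows of the transcript, 53.8% in Ndufa12, 43.4% in Uqcrb, 41.2% in Ndufs5, 39.7% in Ndufs3, 33.5% in Ndufb2 and 31.1% in Ndufb6 also occur in another gene, and the levels of these genes are uncertain. The share was 0 in all 4 complex II genes, in Cyc1, Uqcrc1 and Ndufv3, among others. For Ndufa11 the length in the files, 2661 bases, exceeds the 918 of the reference transcript used here, so its RPKM may be too low.

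**Figure D1:**
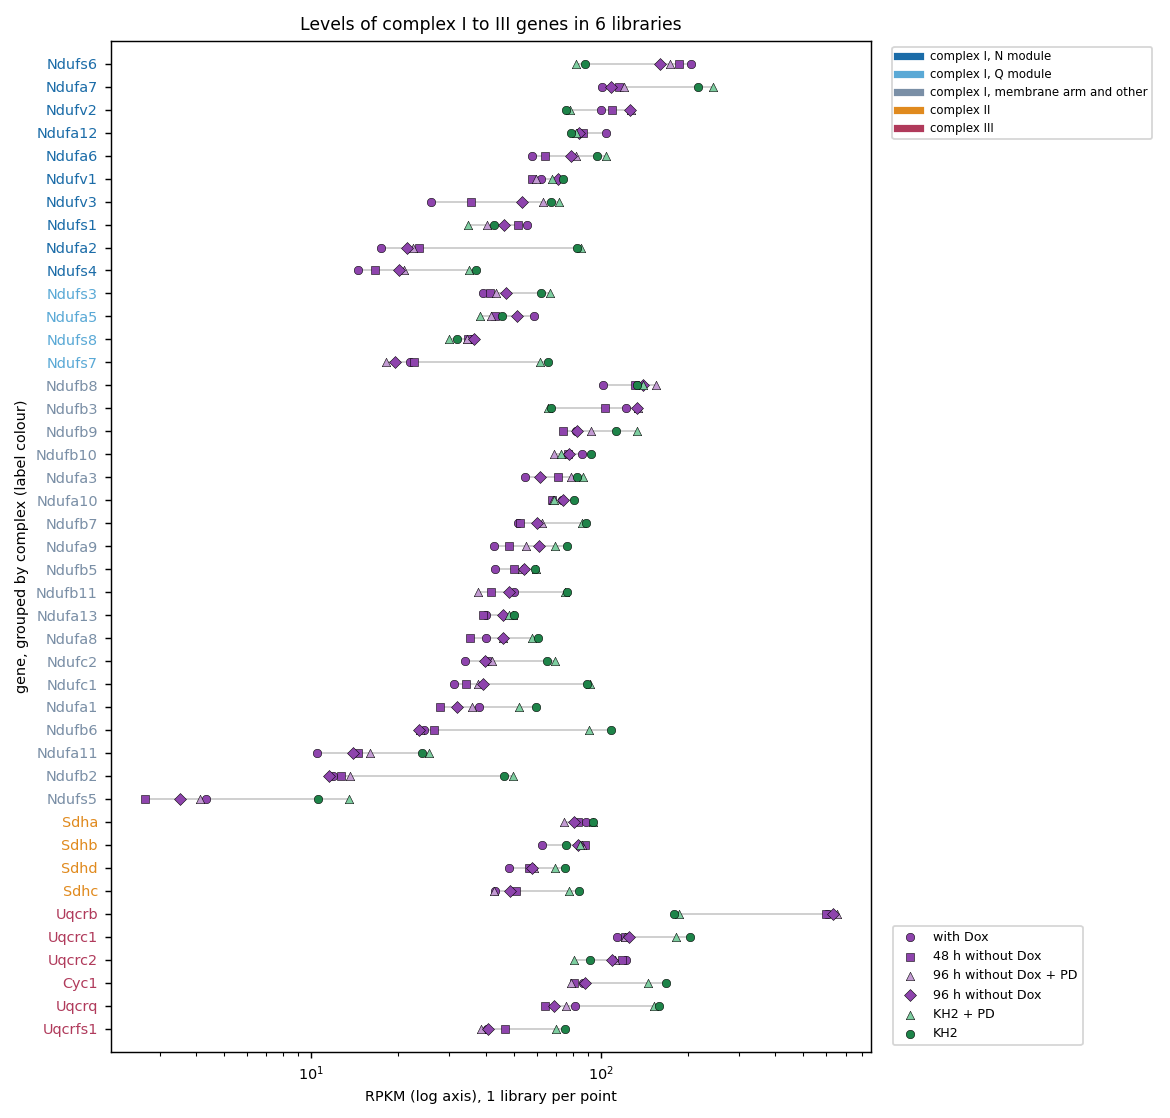
RPKM of the 43 genes (log axis) in 6 libraries, 1 point per library, with genes grouped by complex and ordered by median; grey lines span the lowest to the highest library. Uqcrb stands at 597 to 651 RPKM in the engineered line and at 186 and 179 RPKM in treated and untreated KH2 cells, while Ndufa2, Ndufb2 and Ndufb6 lie apart in the other direction.

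The first question was what Mek inhibition does to these genes. In KH2 cells no member passed in either direction: 0 of 43 were higher and 0 lower, where 9.4% of 12787 genes were higher and 5.11% lower. Among genes with at least 100 reads, which all 43 had, the shares were 8.68% and 3.99%. The median log2 ratio of the members was −0.05, that of all genes −0.02, and the members ran from −0.33 (Ndufb10) to 0.34 (Ndufs5). Ndufb10, a membrane arm subunit, had 73.0 RPKM in treated and 92.1 RPKM in untreated KH2 cells, a fold of 0.793 (0.697 to 0.901). Ndufs1, the largest iron-sulfur subunit of complex I, had 34.8 RPKM treated and 42.6 RPKM untreated (0.816, 0.748 to 0.891). Both lie below the 1.5-fold limit but with intervals under 1. Of the 43 members, 8 had intervals under 1 and 3 had intervals above 1. The reads of Ndufs5 were only 66 treated and 52 untreated, and its interval included 1 (0.873 to 1.87). Over all 43 genes the summed reads had a fold of 0.961 (0.946 to 0.977), and by complex 0.980 for complex I, 0.988 for complex II and 0.909 (0.882 to 0.937) for complex III. In the same pair of libraries 21 of 24 fibroblast markers tested were higher, with summed reads at 5.05-fold, and their part in these values was not tested. In RNA of whole cultures, fewer cells of a type and less RNA per cell cannot be told apart.

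In the engineered line at 96 hours without Dox, PD0325901 was given for the last 48 hours. Of 43 members, 0 were higher and 0 lower, against 3.7% and 1.81% of 11920 genes. Ratios ran from −0.35 for Ndufb11, at 37.8 RPKM with PD0325901 and 48.2 RPKM without, to 0.35 for Ndufa3, at 79.0 RPKM with PD0325901 and 61.9 RPKM without. The median was 0.02, and 0.01 over all genes. Summed reads had a fold of 0.990 (0.974 to 1.005). Here 18 of 23 fibroblast markers were higher, with summed reads at 4.45-fold.

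The 2 pairs were also tested together for a PD0325901 effect common to both cell states, with edgeR's quasi-likelihood test and Benjamini-Hochberg adjustment over 14782 genes. This test called 0 of 43 members higher and 0 lower, against 6.05% and 2.92% of all genes. At unadjusted p below 0.05 there were 2 members, Ndufs1 at −0.24 on the log2 scale (SE 0.098, adjusted p 0.152) and Ndufb10 at −0.25 (SE 0.116, adjusted p 0.207), both lower in both pairs; DESeq2 called 0 members, with 0 at unadjusted p below 0.05, against 2.24% of all genes higher and 0.683% lower. The difference of the effect between the states, tested with 6 libraries after the data had been seen, called 0 of 15103 genes (0%), with 129 at unadjusted p below 0.05 and none of these a member. That difference test had 1 residual degree of freedom, the difference between the libraries without Dox and without inhibitor at the shorter and longer time. Any change over that time was therefore counted as spread. The common dispersion was 0.0462, against 0.00756 in the test of the 2 pairs together. With so large a spread, its 0 calls cannot decide whether the effect differed between the states. An adjusted p above the threshold does not show that the members did not move. Of 16 complex I assembly factors 1 was called, Ndufaf7 at −0.54 (adjusted p 0.0394), and of the 20 glycolysis genes Eno2 (0.90, adjusted p 0.00407) and Hk1 (0.74, adjusted p 0.00194) were higher and Pdk1, the kinase that restrains pyruvate dehydrogenase, was lower (−0.72, adjusted p 0.000126).

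**Figure D2:**
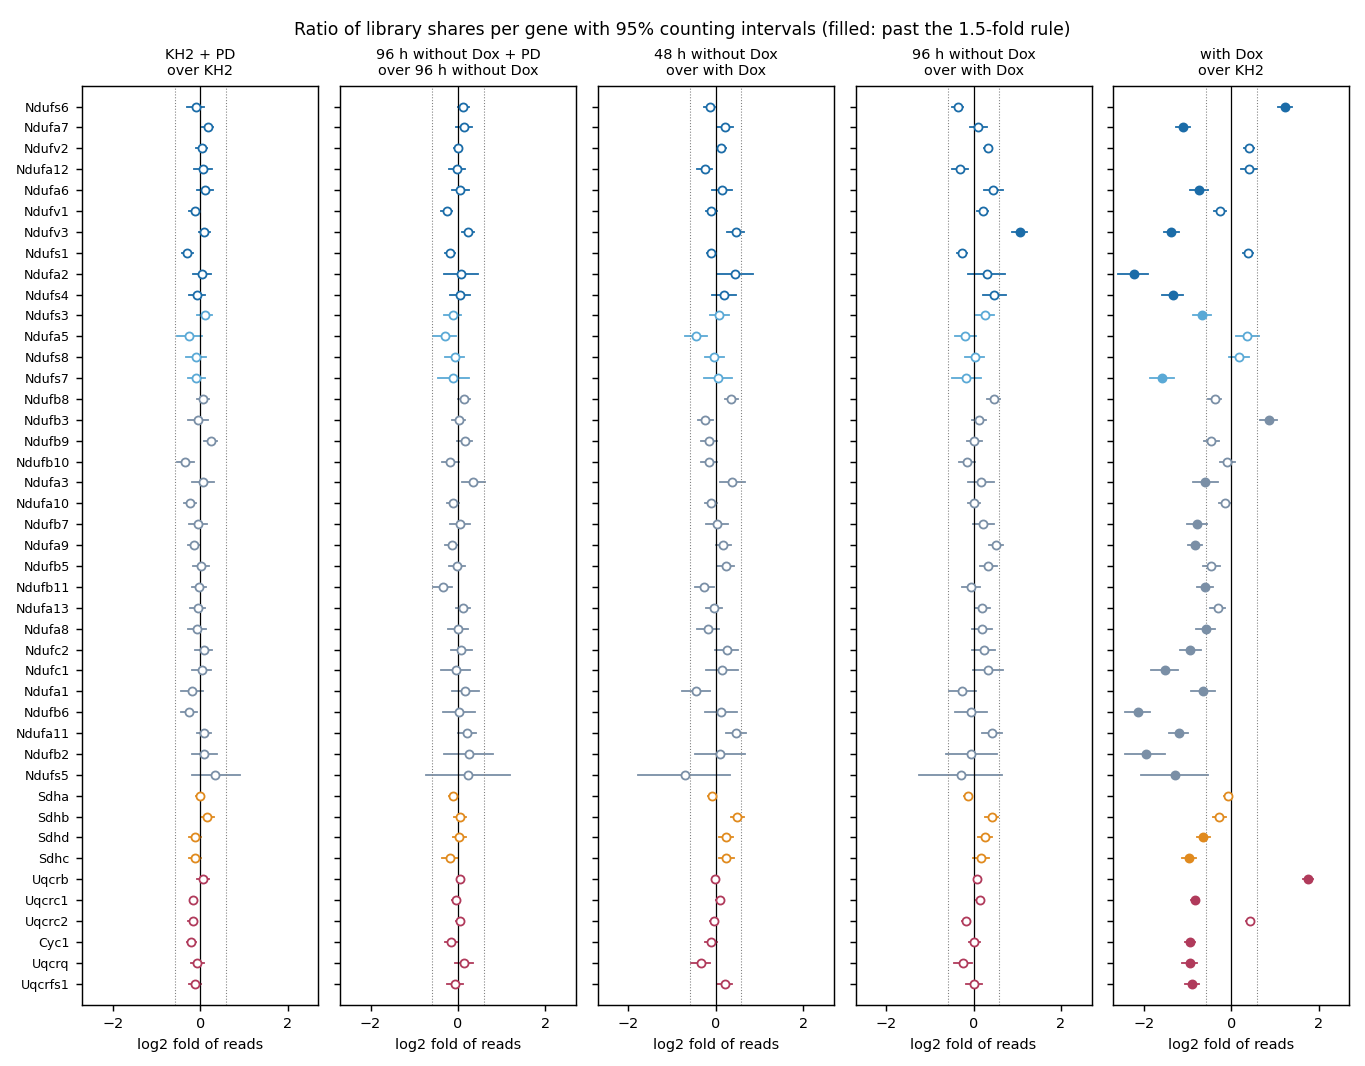
Log2 ratio of library shares for each gene, with 95% counting intervals, in 5 comparisons; filled circles passed the 1.5-fold rule, dotted lines mark 1.5-fold, and colours stand for the modules and complexes. No circle is filled in the first 3 panels, Ndufv3 alone is filled at 96 hours, and 28 are filled in the comparison of the engineered line with KH2.

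The second question was what follows withdrawal of Dox. Erk1 RNA was lower without it but still present, at the levels given above. After 48 hours 0 of 43 members were higher and 0 lower, against 7.33% and 7.44% of 11386 genes. Sdhb, the iron-sulfur subunit of complex II, had the highest ratio (0.49; 88.0 RPKM at 48 hours and 62.5 RPKM with Dox) and Ndufs5 the lowest (−0.61; 14 reads at 48 hours and 22 reads with Dox). After 96 hours Ndufv3 passed as the single member: 1 of 43 higher, 0 lower, against 16.6% and 6.68% of 11804 genes. The members' median log2 ratio was 0.13 by library totals and that of all genes 0.05; with TMM (trimmed mean) scaling both fell by about 0.11, to 0.02 for the members and −0.05 for all genes.

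Ndufv3, a small N module subunit, had 25.9 RPKM with Dox, 35.5 at 48 hours without it, 62.9 at 96 hours with PD0325901 and 53.6 at 96 hours without the inhibitor. In treated and untreated KH2 cells it had 71.8 and 67.1 RPKM. By library totals the levels thus lay in the order of time without Dox, and at 96 hours they stood below both KH2 libraries. With TMM scaling, or with the GC correction described below, the engineered and KH2 libraries overlapped for Ndufv3. Its fold at 96 hours over Dox was 2.07 (1.84 to 2.34), and at 48 hours it was 1.37 (1.203 to 1.57), below the limit. Between 96 and 48 hours the log2 ratio was 0.59, which passed by library totals (1 of 43 higher, and 0 lower, against 12.2% and 2.33% of 11722 genes) but not after TMM or median-of-ratios scaling. In the fit over all 6 libraries, which sets the 3 libraries without Dox against that with Dox, edgeR's quasi-likelihood test called 0 members either way, against 0.132% higher and 0.0993% lower of 15103 genes, and estimated Ndufv3 at 0.78 on the log2 scale (SE 0.244, adjusted p 0.209). That fit treats 48 and 96 hours without Dox as 1 state, so any change between these times was counted as spread. Its 0 calls therefore cannot decide whether members moved after withdrawal. The common dispersion was 0.0284 there and 0.00735 without the 48 hour library. Without that library the estimate for Ndufv3 was 0.98, in a fit whose spread was taken from all genes together, with none specific to Ndufv3.

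Other gene lists of energy metabolism were mixed at 96 hours. Their counts stand beside the 16.6% of all genes higher and 6.68% lower in this pair. Complex IV subunits were higher at 96 hours in 4 of 14 genes, with a median of 0.35 by library totals and 0.24 with TMM. Those passing were Cox4i2 (1.96, 27 reads at 96 hours and 4 with Dox), Cox7a1 (1.33), Cox5a (0.91) and Cox6b1 (0.62, and 0.51 with TMM, where it did not pass), the first 2 being tissue-restricted forms. Of 3 further complex III genes Uqcr10 passed (0.78), and of 2 cytochrome c genes Cyct, the testis form, did (1.59; 137 reads at 96 hours and 41 reads with Dox), while Cycs did not (−0.10). Of 16 ATP synthase genes 0 passed, and the 14 TCA cycle genes had 1 higher, Idh2 (0.74), and 1 lower, Dld (−0.68). Glycolysis enzymes passed in 10 of 20 genes, all higher, among them Aldoc (1.82), Pfkp (1.73) and Hk1 (1.53), and 9 of 20 passed with TMM. In this pair 8 of 23 fibroblast markers were higher and 1 lower, with summed reads at 1.37-fold, and whether they contribute was not tested.

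**Figure D3:**
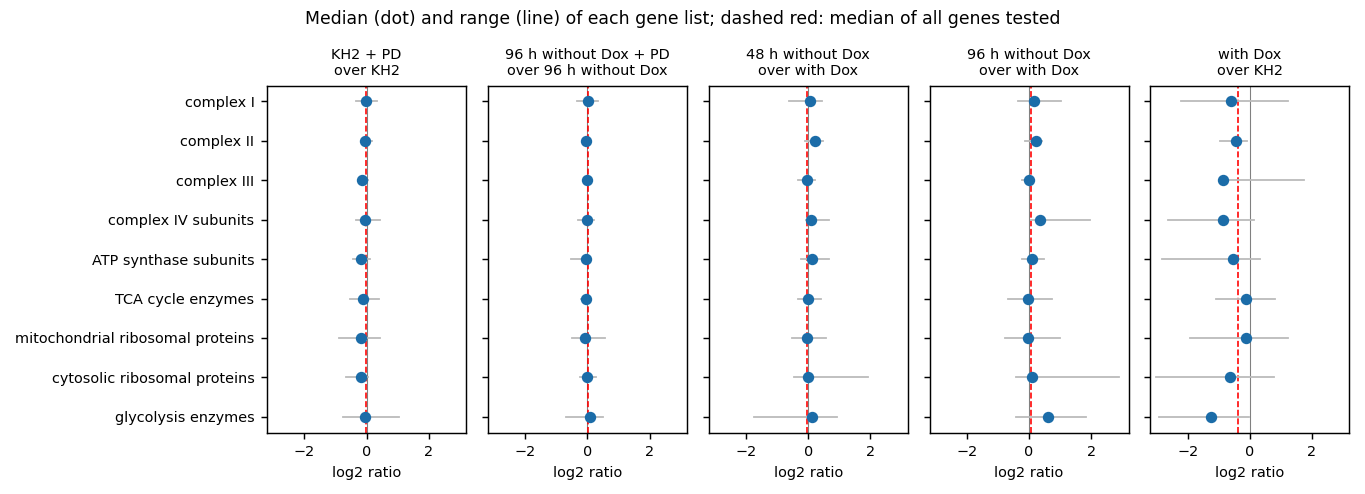
Median (dot) and full range (line) of log2 ratios of RPKM plus 0.5 for complexes I to III and for other energy gene lists, with the median of all genes tested in dashed red. The medians of complexes I to III lie between −0.14 and 0.02 in the PD0325901 panels, and glycolysis enzymes have a median of 0.60 at 96 hours without Dox and −1.26 in the engineered line against KH2.

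The third question, implied by the groups, was how the engineered line maintained with Dox stands against KH2. Here the members differed widely: 3 of 43 were higher and 25 lower, against 8.61% and 38.7% of 12421 genes, so many genes of any kind were lower on library totals. In the same pair 0 of 23 fibroblast markers were higher and 19 lower, with summed reads at 0.278-fold (0.272 to 0.285), and their part in these values was not tested. This lean depends on the scaling. The median of all genes was −0.37 by library totals and 0.02 with TMM, and the members' median −0.64 and −0.23; with TMM 8 members were higher and 10 lower, against 21.5% and 22.8% of all genes. The ratios also followed GC content. Over 12213 genes Spearman's rho of ratio and GC was −0.36, and the median ratio was 0.01 in the lowest eighth of GC and −0.83 in the highest. The members have a median GC of 53.4%, all genes 50.7%. After correction of each ratio for GC, chosen after the data were seen, 7 members were higher and 11 lower, against 18.1% and 20.8% of all genes, with a median of −0.16. The 4 engineered libraries were deposited without gene symbols and the 2 KH2 libraries with them, and the gene length given differed between libraries for 41 genes. Whether their processing differed was not tested. Line, clone, Dox, library preparation and processing cannot be told apart in this comparison.

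A few members passed under library totals, TMM, median-of-ratios, both other pseudocounts, no filter and the GC correction. The 3 higher ones were Uqcrb, Ndufs6 and Ndufb3, and the 8 lower ones Ndufa2, Ndufb6, Ndufb2, Ndufs7, Ndufc1, Ndufs4, Ndufs5 and Ndufv3. The share of all genes passing under every one of these settings was not computed, so these counts cannot show whether the members are unusual. Among the members named, Uqcrb, Ndufs5, Ndufb2 and Ndufb6 have a large share of sequence in common with other genes, as given above.

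Uqcrb had 602, 597, 651 and 634 RPKM in the Dox, 48 hour, 96 hour plus PD0325901 and 96 hour libraries, and 186 and 179 RPKM in treated and untreated KH2 cells. Ndufs6 had 206, 186, 173 and 160 RPKM in the engineered line in the same order, and 82.1 and 87.9 RPKM in treated and untreated KH2 cells. Ndufb3 of the membrane arm had 122, 103, 135 and 133 RPKM there, and 65.4 and 67.4 RPKM in treated and untreated KH2 cells. For all 3, which were picked by the ratio of the Dox library to untreated KH2, the engineered and KH2 libraries did not overlap. Of 15103 genes, 13.2% were higher in this way by library totals.

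Among the lower members Ndufa2, an N module subunit, had 17.5, 23.6, 22.5 and 21.5 RPKM in the engineered line in the same order and 85.4 and 82.6 RPKM in treated and untreated KH2 cells, 4.72-fold lower with Dox than in untreated KH2 cells (3.74 to 6.03). Ndufb6, a membrane arm subunit, had 24.5, 26.6, 23.8 and 23.5 RPKM in the engineered line, and 90.6 and 109 RPKM in treated and untreated KH2 cells. Ndufs7, the Q module subunit next to the ubiquinone site, had 21.9, 22.7, 18.1 and 19.5 RPKM in the engineered line, and 61.5 and 65.5 RPKM in treated and untreated KH2 cells. Again no engineered library reached a KH2 one. The 4 complex II genes were closer to KH2 than Ndufa2, Ndufb6 and Ndufs7. Their summed reads with Dox over untreated KH2 had a fold of 0.795, against 0.781 for complex I and 0.939 for complex III. Of the complex III reads, Uqcrb alone gave 2849 of 8673 with Dox and 817 of 8919 in untreated KH2. The median level of the complex III genes was 100 RPKM with Dox and 163 RPKM in untreated KH2. Sdha had 88.8, 83.5, 74.4 and 80.9 RPKM in the engineered line, and 93.8 and 94.1 RPKM in treated and untreated KH2 cells. Sdhc, which anchors the enzyme in the membrane, had 43.2, 51.1, 42.7 and 48.5 RPKM in the engineered line, and 77.4 and 84.3 RPKM in treated and untreated KH2 cells. Over the 6 libraries 7 members were higher and 28 lower in every engineered library than in either KH2 library, against 13.2% and 43.8% of 15103 genes; with TMM these became 11 and 20, against 25% and 27%.

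**Figure D4:**
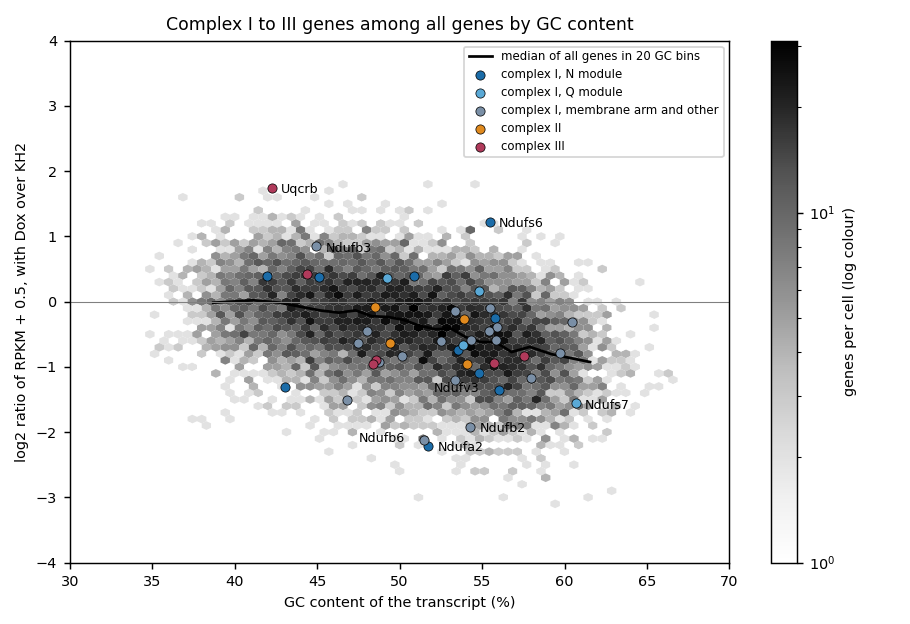
Log2 ratio of RPKM plus 0.5, engineered line with Dox over untreated KH2, against the transcript's GC content; grey cells count all genes, the black line is their median in 20 bins, and coloured points are the 43 genes. The all-gene median falls with GC, and Uqcrb (1.75) and Ndufs6 (1.22) stand above it as Ndufa2 (−2.21), Ndufb6 (−2.13) and Ndufb2 (−1.92) stand below it.

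Tests with a spread pooled over libraries were made in 2 fits. At 96 hours without Dox against KH2, with PD0325901 as a block, edgeR's quasi-likelihood test called 11 members higher and 17 lower, against 27.3% and 29.2% of 14782 genes. Of 25 fibroblast markers 0 were higher and 16 lower in this test. Uqcrb rose by 2.09 on the log2 scale (SE 0.098, adjusted p 1.63e-09), Ndufb3 by 1.29 (SE 0.115, adjusted p 3.46e-07), Ndufs6 by 1.25 (SE 0.108, adjusted p 2.65e-07) and Ndufv2, which holds an iron-sulfur cluster of the N module, by 0.99 (SE 0.098, adjusted p 9.39e-07). Ndufb6 fell by 1.79 (SE 0.146, adjusted p 1.60e-07), Ndufb2 by 1.66 (SE 0.194, adjusted p 4.90e-06), Ndufa2 by 1.66 (SE 0.151, adjusted p 4.40e-07) and Ndufs7 by 1.48 (SE 0.144, adjusted p 8.28e-07). Ndufv3 stood at 0.02 and Sdha at 0.00, neither called. By the roles used here, 4 of 10 N module genes were higher and 3 lower, and 2 of 4 Q module genes were higher and 1 lower. The 19 genes grouped as membrane arm and other complex I subunits had 2 higher and 8 lower. In complex II 1 of 4 went each way, and in complex III 2 of 6 were higher and 4 lower. In this fit and 5 others that changed tool, scaling, filter or GC correction, 5 members were higher in each (Ndufs6, Ndufv2, Ndufb3, Uqcrc2 and Uqcrb) and 12 lower in each. How many of all genes were called in every one of these fits was not computed, so these counts have no background.

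With Dox against KH2, in the fit over 6 libraries, 7 members were higher and 8 lower, against 11.3% and 6.66% of 15103 genes. Uqcrb rose by 2.14 (SE 0.164, adjusted p 0.00572), Ndufs6 by 1.63 (SE 0.202, adjusted p 0.00683) and Ndufb3 by 1.30 (SE 0.201, adjusted p 0.00993), while Ndufa2 fell by 1.87 (SE 0.272, adjusted p 0.00915) and Ndufb6 by 1.72 (SE 0.262, adjusted p 0.00982). These calls rest on single libraries: without the untreated KH2 library 0 members were called either way, with 11 at unadjusted p below 0.05, and 0 of all 14672 genes (0%). Both tests use KH2 libraries in common, so they are not independent of each other. No label says that libraries came from separate cultures, so the p-values measure the spread between these libraries only.

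**Figure D5:**
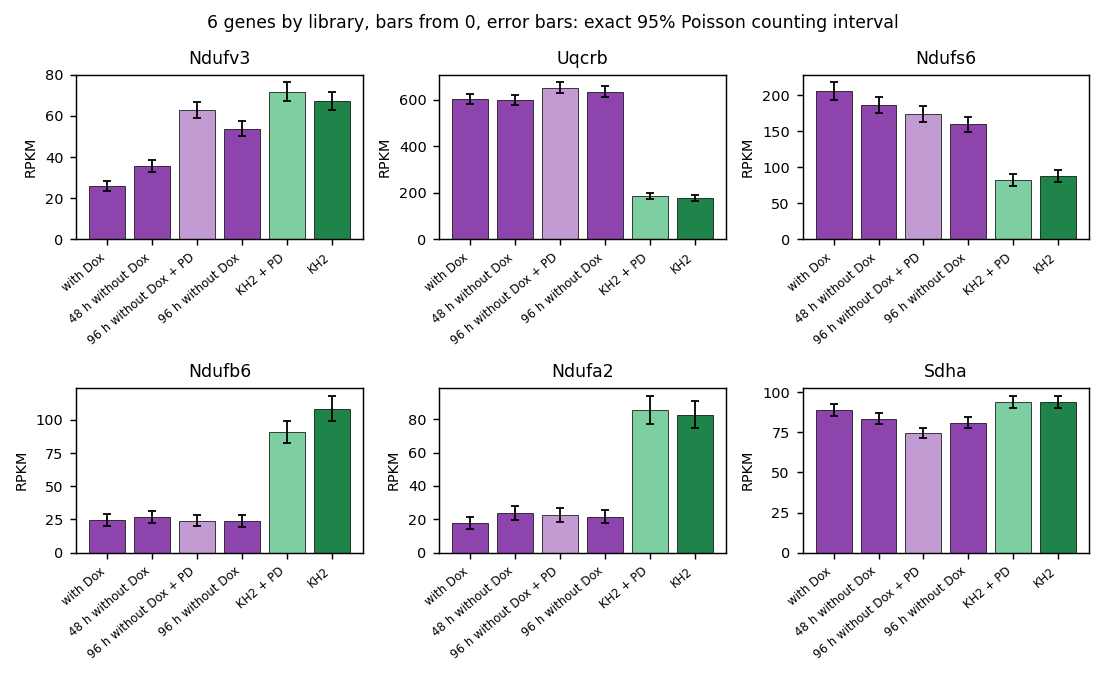
RPKM of 6 of the genes in each library, with bars from 0 and exact 95% Poisson counting intervals. Ndufv3 is lowest with Dox (25.9 RPKM) and highest in treated KH2 cells (71.8 RPKM), Uqcrb and Ndufs6 are higher in all 4 engineered libraries, Ndufb6 and Ndufa2 lower in them, and Sdha ranges from 74.4 to 94.1 RPKM.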

How the data were processed

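PolyA RNA of 6 ESC libraries (1 per group) was sequenced as single-end 50-base reads, per the labels. The authors deposited a count of uniquely mapped reads per gene and the RPKM computed from it by gene length and library total, per the file headers. Per the submitters' processing notes reads were placed on mm9; the aligner and annotation are not given in the sources used here. Files were joined by gene ID, genes without a row were set to 0, and symbols came from RefSeq. Strand was not separated. Mitochondrially encoded subunits were not analysed here.

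The 43 members and the other lists were chosen with earlier results of these data known. The 6 ratios between 2 libraries use log2 of RPKM plus a pseudocount of 0.5, and exact 95% Clopper-Pearson intervals that cover counting error only. Tests used edgeR 4.0.16 quasi-likelihood in R 4.3.3, TMM scaling, at least 20 reads and an adjusted p threshold of 0.05, over 4 libraries or 6. They were checked on simulated data. DESeq2 1.42.0, other scalings, filters, pseudocounts and fold limits, left-out libraries and a GC correction were alternatives. All members could be named; in each comparison those passing and the 5 highest and 5 lowest were favoured, and from other lists up to 4 passing genes. Promoters and GC come from GRCm38 tables, and no coordinates of the files were used.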

Additional observations from a re-analysis of the deposited data

How the results depend on the processing

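With PD0325901, the counts of 0 members stayed at 0 in KH2 and in Erk KO under TMM, median-of-ratios, other pseudocounts, the 2-fold limit, no filter and the GC correction; the 1.2-fold limit gave 0 higher and 2 lower in KH2 (all genes 18.7% and 17.1%), and 1 and 2 in Erk KO (10.6% and 6.99%). That limit gave 6 higher and 3 lower at 48 hours without Dox (17.3% and 19.2%), 10 and 3 at 96 hours (29.3% and 18.9%), 7 and 0 at 96 against 48 hours (25.7% and 11.2%), and 8 and 30 in the Dox-maintained line against KH2 (17.7% and 52.3%). At 96 against 48 hours 0 were higher with TMM, median-of-ratios, a pseudocount of 1, the 2-fold limit and the GC correction. In the Dox-maintained line against KH2, 8 were higher and 10 lower with TMM (median −0.2345), 9 and 10 with median-of-ratios (−0.1876; all genes 23.5% and 21.2%), 7 and 11 with the GC correction (−0.1604), and 2 and 10 at the 2-fold limit (2.76% and 21.4%). The GC correction turned Ndufa3 to 0.0607 there, and Uqcrc1 to 0.0232 in Erk KO at 96 hours against KH2. Members without overlap were 11 higher with TMM, and 17 higher and 13 lower with the GC correction (25.1% and 23.7% of all genes).

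In the tests, the shares of all genes called higher and lower in the same fit follow each pair of counts. Erk KO at 96 hours against KH2 had 6 higher and 12 lower with DESeq2 (19.5% and 14.8%), 5 and 26 with library totals (17.6% and 45.2%), and 6 and 13 without PD0325901 in the model (17.7% and 14.3%). With Dox against KH2 had 6 and 5 with DESeq2 (10.9% and 4.69%), 3 and 17 with library totals (5.19% and 13.9%) and 6 and 5 with the GC correction (8.32% and 3.79%). Leaving out 1 library there gave 0 to 9 higher and 0 to 16 lower: 0 and 0 without untreated KH2 (0% and 0%), 3 and 2 without treated KH2 (5.23% and 2.61%) or without the 96 hour PD0325901 library (5.55% and 3.08%), 9 and 16 without the 48 hour library (24.2% and 26%). Without Dox against with Dox, leaving out 1 library gave 0 to 3 higher and 0 to 2 lower, the highest without the 48 hour library (14% and 12.3%). The cause was not tested. No paired analysis was possible because each group has 1 library, so no replicate numbers can pair samples; the tests over 4 libraries hold cell state or PD0325901 as a term, with 1 residual degree of freedom. Ndufs5, with 14 to 66 reads, is limited most by depth.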
